A study of Rattus norvegicus with 10 samples.

Results

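The prolactin receptor and the STAT5 signalling genes that act with it were followed in rat milk whey across lactation. All array probes that are not controls and whose gene name is Prlr, Jak2, Stat5a, Stat5b, Stat3, Cish, Socs1, Socs2 or Socs3 were taken, which gave 10 probes of 9 genes out of 41012 probes carrying 35469 names. Stat3 had 2 probes and each other gene had 1. The milk came from 3 F344/N dams, an inbred rat strain, each sampled on d 2, d 9 and d 16 after birth, so that each day had 3 arrays and each dam gave 1 array a day. Before milking, the dams were kept apart from their litters and were given oxytocin, the hormone of milk let-down. The milk was freed of fat, casein and cells by centrifugation, and the whey was then filtered, so the RNA measured was outside cells. The comparison fluid was serum, for which RNA of the 3 dams drawn on d 21 was mixed and run on 1 array. Milking was done under light anaesthesia.

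Prolactin, released by the pituitary gland during suckling, binds its receptor on mammary epithelial cells. The receptor has no enzyme activity of its own and works through the kinase JAK2, which phosphorylates the transcription factors STAT5A and STAT5B. These enter the nucleus and switch on milk protein genes. The SH2-domain protein encoded by Cish and the suppressors of cytokine signalling encoded by Socs1, Socs2 and Socs3 are made in response to STAT activity and damp the signal. STAT3 is known in the mammary gland for its part in cell death and tissue remodelling when suckling stops.

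The array carries DNA probes of 60 bases, placed on the rn4 rat genome by the files. The sequences below are shown because they say which stretch of each transcript was read, and they cover the receptor, a STAT5 factor, STAT3 and the feedback gene on which the results turn. The Prlr probe lies at chr2:59677666-59678170 on the plus strand and the Stat3 probe used lies at chr10:89823819-89824169 on the minus strand. Their 60 bases are spread over 505 and 351 genomic bases, so each is placed on more than 1 block of the genome. The Stat5b probe at chr10:89722209-89722268 on the minus strand and the Cish probe at chr8:112544581-112544640 on the plus strand are each 1 unbroken block.
Prlr: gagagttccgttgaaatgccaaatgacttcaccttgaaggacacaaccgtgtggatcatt
Stat5b: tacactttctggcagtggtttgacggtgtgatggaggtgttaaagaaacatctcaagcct
Stat3: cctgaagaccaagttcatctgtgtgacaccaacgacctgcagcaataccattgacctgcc
Cish: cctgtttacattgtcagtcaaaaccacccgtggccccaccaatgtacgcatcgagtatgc

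The remaining probes are given by position. The Stat5a probe is at chr10:89819609-89819668 on the plus strand, with 97340 bases between it and the Stat5b probe on the same chromosome, where Stat5b, Stat5a and Stat3 are neighbours. The second Stat3 probe is at chr10:89821145-89821204 on the minus strand, with 1476 bases between it and the Stat5a probe. The Jak2 probe is at chr1:232974679-232974738 on the plus strand. The 3 suppressors are read at chr10:4820384-4820443 on the plus strand for Socs1, chr7:32605827-32605886 on the minus strand for Socs2 and chr10:107958703-107958762 on the minus strand for Socs3. The probes of Prlr and Jak2 and the second Stat3 probe were printed as 10 spots on each array and were averaged.

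The Cish promoter is shown because it held 4 copies of the letters TTCNNNGAA, the core to which STAT dimers bind. The motif was searched in the 250 bases before each annotated transcript start of the RefSeq promoter table for the GRCr8 assembly, and it reads the same on both strands. In the Cish sequence, at chr8:116850719-116850968 on the plus strand, capitals mark the 4 matches.
Cish promoter: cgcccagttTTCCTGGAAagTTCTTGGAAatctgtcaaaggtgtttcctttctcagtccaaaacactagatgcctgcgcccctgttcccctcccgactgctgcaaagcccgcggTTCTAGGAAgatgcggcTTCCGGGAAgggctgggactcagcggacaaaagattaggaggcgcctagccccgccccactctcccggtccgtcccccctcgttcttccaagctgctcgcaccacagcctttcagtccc
The matches began 241, 230, 136 and 119 bases before the start. Of 33469 promoters, 7.67% held at least 1 match, 0.418% held at least 2 and 2 promoters held 4 or more. The table had promoters for 8 of the 9 genes, with 2 starts for Prlr. The downstream Prlr start had a match beginning 176 bases before it and Socs1 had a match 196 bases before its start. Jak2, Stat5a, Stat5b, Stat3 and Socs3 had none of these letters in the window. A match is a run of letters, and no binding was measured here.

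**Figure D1:**
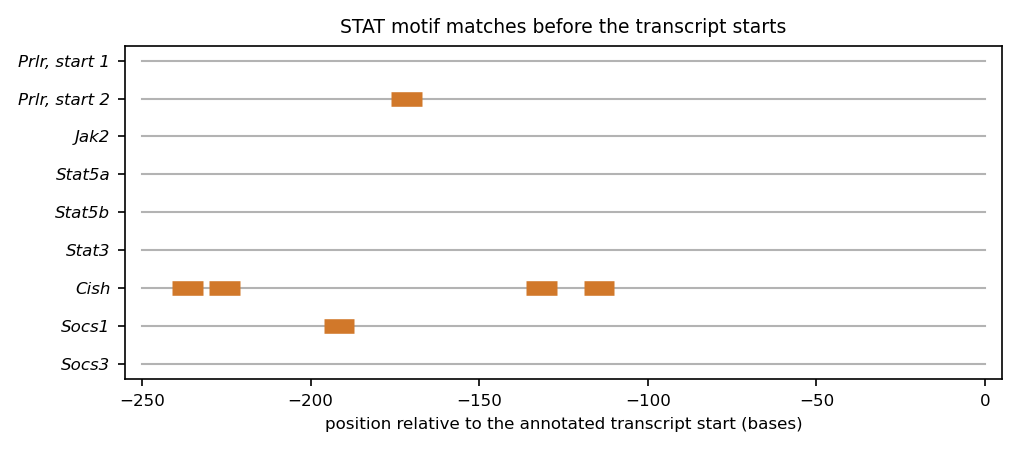
Position of each STAT motif match (orange blocks) in the 250 bases before the annotated transcript starts (grey lines; x axis, bases relative to the start) of the 8 genes with a promoter in the RefSeq table. Cish has 4 blocks, Socs1 and 1 of the 2 Prlr starts have 1 each, and the other genes have none.

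The arrays differed in brightness. The 75th percentile of the processed signal, the spot brightness after background subtraction, had its lowest whey value at 12.5 and its highest at 83.2, 6.65 times as much, with 4.11 in serum, while the spike-in controls stayed within 1.48-fold over all 10 arrays. Values are therefore given as log2 of the processed signal after quantile normalization, which gives all arrays the same distribution and makes each value relative to the other probes of its array. Each array was made from 100 ng of RNA, so the values say nothing of the amount in a volume of milk. The d 16 arrays shared 1 slide and 1 scan day with serum and with no other whey array, so slide, scan and day cannot be told apart for d 16. A d 2 array shared its slide with the 3 d 9 arrays. Of 7 markers of mammary epithelial cells, 6 passed the background mark on each of the 9 whey arrays, and Elf3 passed it on 2. Their summed linear level was 11300 to 14600 on d 2, 4920 to 7020 on d 9 and 6510 to 7610 on d 16. Of 8 macrophage markers, 6 were well above background in whey, with sums of 249 to 361, 657 to 1480 and 2310 to 3300 on the 3 days, while Csf1r and Cd163 were well above background on no array. In RNA of a mixed fluid, fewer contributing cells and less RNA from each cell cannot be told apart.

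Detection in a group asked for 1 array or more on which the scanner software marked the probe as well above background with a signal over 20. By this rule 4 of the 9 genes were detected on d 2, 6 on d 9 and 5 on d 16, against 28.7%, 39.0% and 32.3% of all probes. Jak2, Stat5a, Stat5b and Stat3 were well above background on all 9 whey arrays, as were 23.9% of all probes. Prlr and Cish were so on 6, Socs3 on 2, and Socs1 and Socs2 on none. In all, 6 of the 9 genes were detected on some day, against 41.1% of all probes, and entered the tests between days among 16849 probes.

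**Figure D2:**
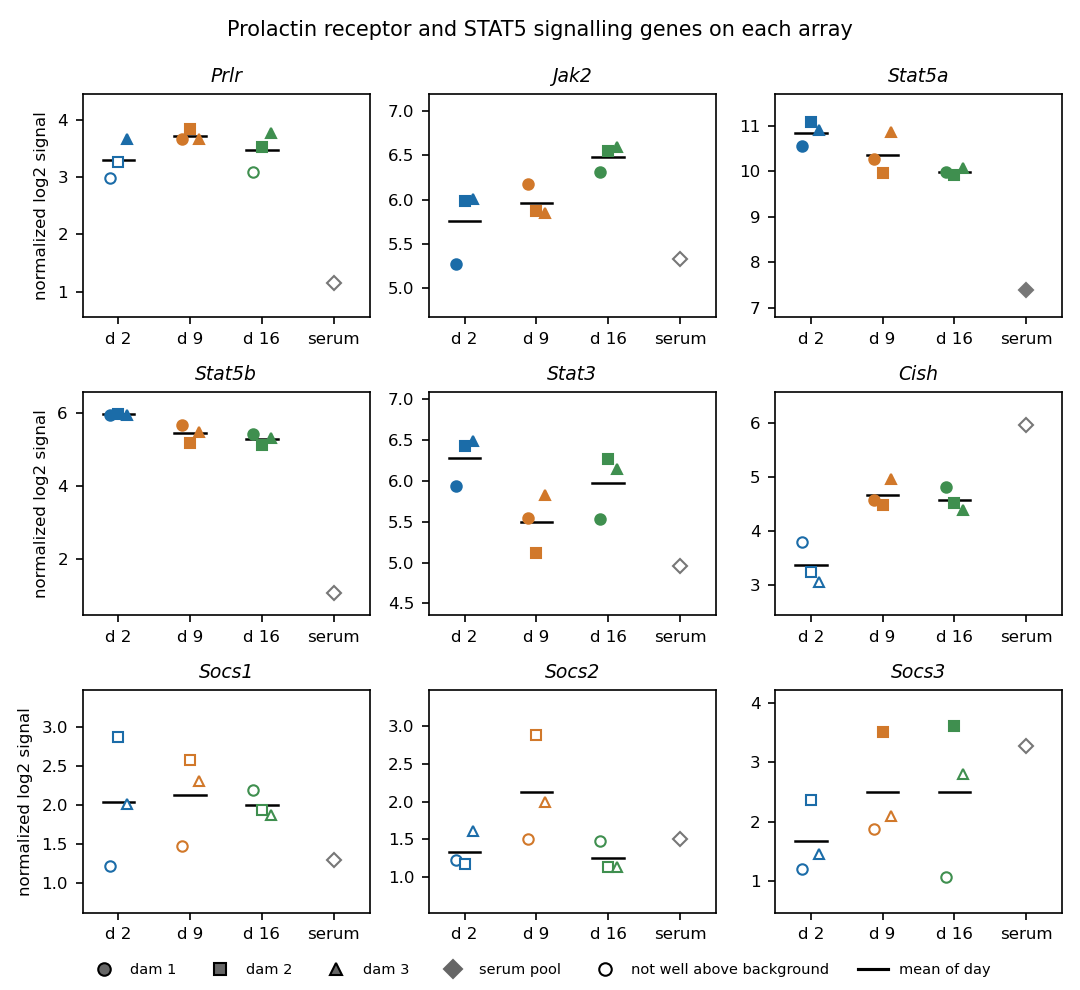
Quantile-normalized log2 signal (y axis, scaled per panel) of each gene on each array, with d 2, d 9, d 16 whey and the serum pool on the x axis. Symbols give the dam, open symbols were not well above background, and black lines are means of 3 dams. Cish lies between 3.05 and 3.80 on d 2 and between 4.40 and 4.97 on the later days.

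Between d 2 and d 9, Cish rose and none of the other 5 genes tested passed the threshold. Between d 2 and d 16, Cish and Jak2 rose, Stat5a and Stat5b fell, and Prlr and Stat3 did not pass. Between d 9 and d 16 no gene passed. The tests were limma contrasts on the 9 whey arrays, and p-values were adjusted by Benjamini-Hochberg across the 16849 probes, with a threshold of 0.05. The 1 of 6 genes called at d 9 stood against 17.7% of all probes called in that comparison (11.2% higher and 6.46% lower). The 4 of 6 called at d 16, 2 in each direction, stood against 28.5% (16.0% higher and 12.5% lower). Both comparisons use the same 3 d 2 arrays. The median log2 change of the 6 genes was -0.14 for d 9 and -0.07 for d 16 against d 2, where all tested probes had medians of 0.11 and 0.04. A limma F test of any difference among the days called Cish (adjusted p = 0.0103) and Stat5b (adjusted p = 0.0302), that is 2 of the 6 genes beside 25.6% of all probes.

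**Figure D3:**
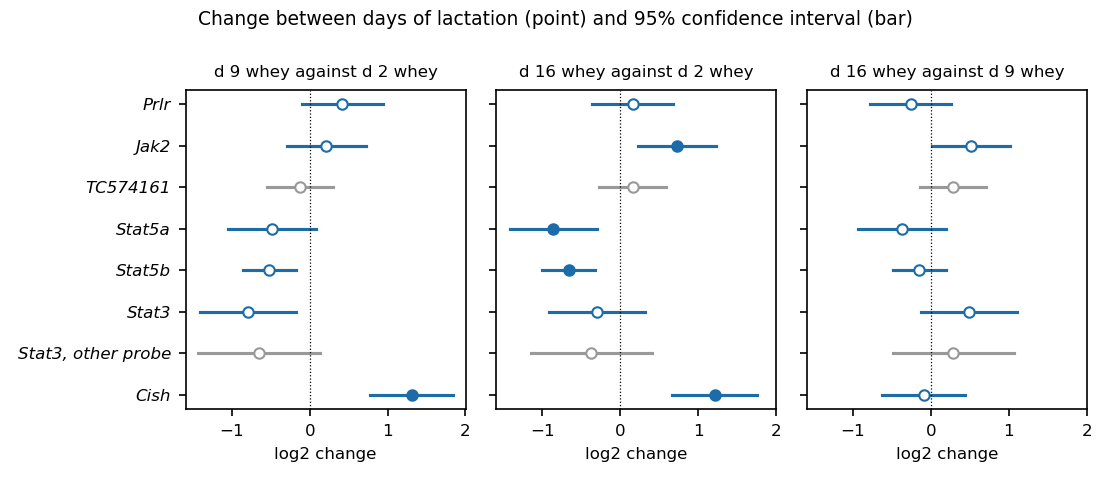
Log2 change (x axis) of each tested gene in the 3 comparisons between days, with its 95% confidence interval from the limma fit over 9 whey arrays; filled points had an adjusted p under 0.05. Grey rows are the second Stat3 probe and the probe TC574161, which lies outside the gene rule. Cish is the filled point at 1.31 and 1.21.

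The receptor itself was near the limit of detection. Prlr read 2.98, 3.27 and 3.66 in the 3 dams on d 2, 3.67, 3.84 and 3.66 on d 9 and 3.09, 3.53 and 3.77 on d 16. It was well above background in 1 dam on d 2, in all 3 on d 9 and in 2 on d 16, and its days overlapped. By the detection rule it passed on d 9 alone and entered the tests through that day. The log2 change was 0.42 ± 0.22 (SE, n = 3 a day; limma adjusted p = 0.225) from d 2 to d 9, with an interval of -0.10 to 0.94. By d 16 it was 0.16 ± 0.22 (limma adjusted p = 0.624), with an interval of -0.36 to 0.68. Under spike-in scaling, where all tested probes had a median change of 1.52 for d 9, Prlr read 1.70 and was called (adjusted p = 0.0437). The 10 single spots of the probe on a whey array varied with a median SD of 0.25. The SD between dams of a day was 0.29, but it was taken on means of the 10 spots, so these SDs are not on the same footing. Within the slide that held both days the d 9 value was 0.06 above the single d 2 array.

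Jak2, the kinase bound to the receptor, was read at 5.27, 5.98 and 6.01 on d 2, at 6.18, 5.87 and 5.85 on d 9 and at 6.31, 6.55 and 6.59 on d 16. All 3 d 16 arrays lay above all arrays of d 2 and d 9. By d 16 the log2 change from d 2 was 0.73 ± 0.22 (SE, n = 3 a day; 1.66-fold, limma adjusted p = 0.0404), higher in 3 of 3 dams. For d 9 against d 2 the change was 0.21 ± 0.22 (limma adjusted p = 0.515). From d 9 to d 16 it was 0.52 ± 0.22 (limma adjusted p = 0.258), although the values did not overlap, as was so for 29.4% of all probes. The d 16 call was lost under 12 of 18 other settings, leaving out any 1 of 7 of the 9 arrays among them, and with the dam as a block (adjusted p = 0.0586). With spike-in scaling Jak2 was instead called at d 9, at 1.70 (adjusted p = 0.044), and read 1.34 at d 16 (adjusted p = 0.313). With normexp the d 16 change was 0.33 and still called. A further probe that the files describe as JAK2 but list under TC574161 was looked at after these values were seen. It lies 942 bases beyond the Jak2 probe on the same strand, and its log2 difference between d 2 and d 16 was 0.16 ± 0.18 (SE; limma adjusted p = 0.55), so the probes differed on whether the threshold was passed. A dimmer probe also listed under TC574161 was well above background on no array, at whey signals of 1.85 to 10.5, and was not tested.

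Stat5a, the main STAT5 factor of milk protein gene transcription, was the gene of the 9 that was well above background on all 10 arrays. It read 10.55, 11.09 and 10.91 on d 2, 10.26, 9.96 and 10.87 on d 9 and 9.99, 9.91 and 10.07 on d 16. The d 16 arrays all lay below the d 2 arrays, while d 9 was spread over both. Between d 2 and d 16 the level fell from 10.85 ± 0.27 to 9.99 ± 0.08 (SD, n = 3), or by 0.86 ± 0.24 on the log2 scale (SE; limma adjusted p = 0.0337), in 3 of 3 dams. The change from d 2 to d 9 was -0.49 ± 0.24 (limma adjusted p = 0.199). The d 16 call was lost under 8 of 18 other settings, 5 of them the omission of 1 array: d 2 dam 2, d 2 dam 3 or any d 16 array, with adjusted p between 0.078 and 0.101. With spike-in scaling the change was -0.38 (adjusted p = 0.82).

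Stat5b, the paralogue better known for growth hormone signalling in liver, moved the same way at a lower spread. It read 5.95, 5.96 and 5.95 on d 2, 5.66, 5.17 and 5.47 on d 9 and 5.42, 5.13 and 5.32 on d 16. The d 2 arrays did not overlap with either later day, and their SD of 0.01 compares with 0.25 on d 9. The log2 change by d 16 was -0.66 ± 0.15 (SE, n = 3 a day; limma adjusted p = 0.0153), lower in 3 of 3 dams. For d 9 it was -0.52 ± 0.15 (limma adjusted p = 0.0511), which passed with the dam as a block (adjusted p = 0.0463) and read 0.95 with spike-in scaling. The d 16 call was lost without d 16 dam 2 (adjusted p = 0.0546) and under spike-in scaling, where the change was -0.05 (adjusted p = 0.977). With normexp it was -0.30 and still called. The epithelial marker sums given above were also lower on d 9 and d 16 than on d 2, with 4 of 7 markers called lower in each comparison (Krt8, Krt18, Krt19 and Cldn3). Of all probes, 6.46% were called lower by d 9 and 12.5% by d 16. Krt18 made up most of the sum, and Cdh1 and Epcam read 0.66 and 0.43 above d 2 by d 16 without being called. The part of these markers in the lower Stat5a and Stat5b values was not tested.

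Stat3 had its lowest day mean on d 9 with either probe, although the values of d 9 and d 16 overlapped. The probe used read 5.93, 6.42 and 6.48 on d 2, 5.54, 5.12 and 5.82 on d 9 and 5.53, 6.26 and 6.14 on d 16. Days 2 and 9 did not overlap, and the log2 change between them was -0.79 ± 0.27 (SE, n = 3 a day; limma adjusted p = 0.0798), lower in 3 of 3 dams. The interval ran from -1.41 to -0.17, and with spike-in scaling the difference was 0.69. The change from d 2 to d 16 was -0.30 ± 0.27 (limma adjusted p = 0.435). The second probe gave -0.65 and -0.37 for these comparisons, in the same direction and also not called, with 1 of 3 dams opposite at d 9. Its d 2 and d 9 values overlapped.

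Cish, the feedback inhibitor whose promoter is shown above, was called higher on both later days than on d 2. By the detection rule it passed on d 9 and d 16 only, so it entered the tests through the days on which it was high. With no filter on low values it had a limma adjusted p of 0.0223 for d 9 and 0.0182 for d 16. It read 3.80, 3.25 and 3.05 on d 2, when no array was well above background, and 4.58, 4.48 and 4.97 on d 9, when all were. On d 16 it read 4.82, 4.52 and 4.40, again well above background on each array. The means of the normalized values were 3.37 ± 0.39 on d 2, 4.67 ± 0.26 on d 9 and 4.58 ± 0.22 on d 16 (SD, n = 3). The fitted log2 changes from d 2 were 1.31 for d 9 and 1.21 for d 16 (limma adjusted p = 0.0106 and 0.0082), but the d 2 level is not a measured one. Each d 2 value was therefore raised to at least the dimmest signal well above background on its array. The difference was then 2.28-fold by d 9 and 2.14-fold by d 16. That mark is no firm limit, since in d 2 dam 3 Cish read 3.05 against 2.98 without being well above background. Cish was higher in 3 of 3 dams on both days. From d 9 to d 16 the change was -0.09 ± 0.23 (SE; limma adjusted p = 0.863), with an interval of -0.63 to 0.44. The calls held in each fit that left out 1 array, with adjusted p from 0.00967 to 0.0398 for d 9 and from 0.00512 to 0.0305 for d 16. The d 9 call was lost in the fit with slide as a fixed block (adjusted p = 0.149), where calls over all probes dropped from 2975 to 146, and with the Tukey-Kramer test (adjusted p = 0.0513). The d 16 call was lost with spike-in scaling (adjusted p = 0.133). The macrophage marker sums given above were higher on both later days too, and their part in the Cish rise was not tested. Within the shared slide, the d 9 arrays were 1.63 above the d 2 array on the log2 scale. With normexp background correction the log2 changes were 0.32 and 0.22, both still called.

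The suppressors Socs1, Socs2 and Socs3 were too dim to be tested. Processed signals over the 9 whey arrays were 2.32 to 11.9 for Socs1 and 2.10 to 11.1 for Socs2, and no array was well above background. For Socs3, the inhibitor best known from STAT3 signalling, the signal was 18.6 in dam 2 on d 9 and 19.4 in the same dam on d 16, both well above background. On the other whey arrays Socs3 was at 2.28 to 9.84 and not well above background. Its normalized values were 1.21, 2.36 and 1.46 on d 2, 1.88, 3.52 and 2.10 on d 9 and 1.07, 3.62 and 2.81 on d 16, so that dam 2 was highest on each day. At this brightness a difference between days was not detectable for these 3 genes.

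From d 9 to d 16 none of the 6 genes was called by limma, where 1.42% of all probes were (0.558% higher and 0.861% lower), and none was called by any other setting or by the Tukey-Kramer test. Without adjustment, Jak2 alone of the 6 was under 0.05, beside 18.7% of all probes. The d 9 arrays are shared with the first comparison. Values that did not overlap between days were seen in 3 of 6 genes between d 2 and d 9, 1 higher and 2 lower (38.8% of all probes, 24.1% higher and 14.7% lower). Between d 2 and d 16 this was so for 4 genes, 2 higher and 2 lower (48.2%, 25.9% and 22.3%). Between d 9 and d 16 it was so for 1, higher (29.4%, 11.8% higher and 17.6% lower).

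Few of these transcripts were measured in serum. None of the 9 genes was detected there by the rule above, nor were most probes, since 8.60% were. Stat5a was well above background in serum at a processed signal of 17.1, against 816 to 7540 in whey. After normalization it was 10.40 ± 0.46 in whey (SD, n = 9 arrays of 3 dams) and 7.39 in serum, a difference of 3.01 or 8.08-fold, and it was 14.3-fold with 75th percentile scaling, 101-fold with spike-in scaling and 7.56-fold after normexp. The serum array was 1 pool, so this difference has no test and no replicate. Jak2 and Stat3 were not well above background in serum. Against the dimmest serum probe well above background, at 5.85, their means over the 9 whey arrays were 1.16-fold and 1.05-fold higher. The d 2 mean of Jak2, 5.75, and the d 9 mean of Stat3, 5.49, lay below that mark. The brighter TC574161 probe, described as JAK2 but outside the gene rule, was well above background in serum at a signal of 21.1. Its normalized value there was 7.73, and its mean over the 9 whey arrays was 7.86, so the JAK2 probes differed on serum. For Prlr, Stat5b and Cish the mark was above the whey mean, and no fold is given. The normalized Cish value in serum, 5.97, lay above all whey arrays although its processed signal was 8.02, within the 7.46 to 9.24 of d 2, and not well above background. Taking the normalized values as they stand, Prlr, Stat5a and Stat5b were more than 4-fold higher in whey, which is 3 of 9 genes. Of probes well above background on some array 27.2% were, a set that leaves out 2 of the 9 genes, Socs1 and Socs2. For Prlr and Stat5b the serum side of that count was not well above background.

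**Figure D4:**
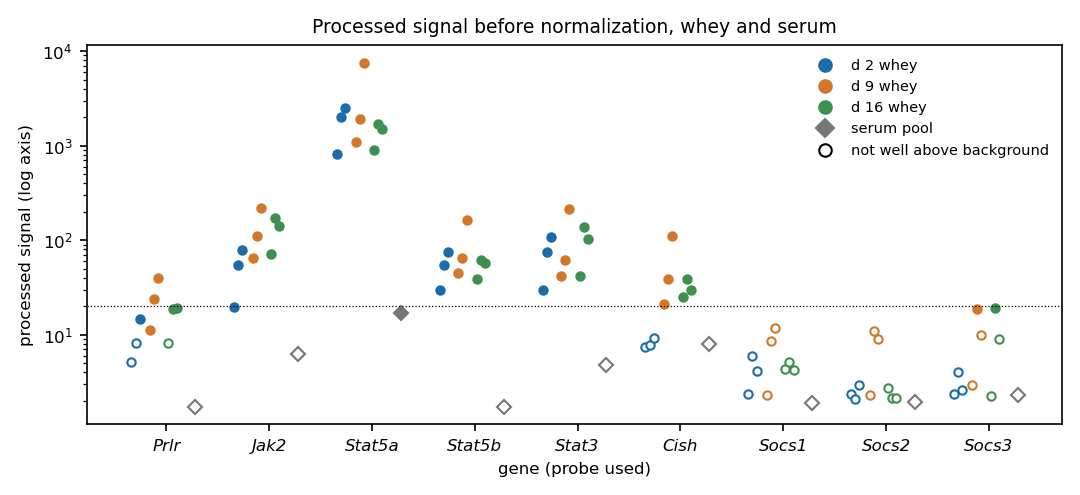
Processed signal before normalization (y axis, log axis) of the probe used for each gene on each array, by fluid and day; open symbols were not well above background and the dotted line is the detection minimum of 20. Stat5a in serum (17.1) is the filled serum symbol, and Cish in serum (8.02) lies among its d 2 whey values.

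Of 35 other JAK-STAT pathway genes on the array, 24 were tested. By d 9, 4 were called higher and 2 lower than on d 2, a share of 25.0% beside the 17.7% over all probes, and by d 16, 5 were higher and 2 lower, 29.2% beside 28.5%. Their median log2 changes were -0.07 and 0.17, where all tested probes had 0.11 and 0.04, and none was called from d 9 to d 16. Gh1, which encodes growth hormone, had the largest fitted change: 7.28, 6.50 and 6.50 on d 2, 4.75, 3.54 and 3.75 on d 9 and 4.48, 2.15 and 3.11 on d 16. Dam 2 on d 16 was not well above background, so its value there is not a measured level. The fitted log2 change was -2.75 ± 0.59 (SE, n = 3 a day; limma adjusted p = 0.0192) by d 9 and -3.52 ± 0.59 (limma adjusted p = 0.00496) by d 16, and it was well above background in serum at a signal of 24.9.

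The genes called in this list differed in role, and relatives of those called did not all pass. Pias2, of the family of protein inhibitors of activated STAT, rose by 0.71 by d 9 and by 1.00 by d 16 (limma adjusted p = 0.016 and 0.00283), while Pias1, Pias3 and Pias4 were not called, at -0.22, -0.36 and -0.74 by d 9. Ptpn2, a phosphatase that removes phosphate from JAK and STAT proteins, rose by 0.93 and 0.73 on the log2 scale (limma adjusted p = 0.0094 and 0.013), while Ptpn1, Ptpn6 and Ptpn11 were not called. Il6ra, the ligand-binding chain of the interleukin-6 receptor, had fitted log2 changes of 1.92 by d 9 and 2.29 by d 16 (limma adjusted p = 0.0187 and 0.0062). It was not well above background on d 2 and entered the tests through the later days. With its d 2 values raised to the dimmest signal well above background on each array, the differences were 1.07-fold and 1.38-fold. Socs7, a further suppressor of cytokine signalling, was called higher on d 9 at a fitted log2 change of 1.37 (limma adjusted p = 0.0495). No d 2 array and 2 of 3 d 9 arrays were well above background, and it entered the tests through d 9. Socs6 fell by 0.67 by d 16 (limma adjusted p = 0.0147) and, outside the 5 largest changes of that comparison, by 0.55 by d 9 (limma adjusted p = 0.0417). Socs4 and Socs5 were not called.

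Among 14 tested genes of 16 known as prolactin or STAT5 targets, 2 were higher on d 9 than on d 2 (14.3%, beside 17.7% of all probes) and none lower, and by d 16, 4 were higher and 1 lower (35.7%, beside 28.5%). The list medians were 0.00 and 0.26, where all tested probes had 0.11 and 0.04. Csn1s2b, a casein gene, rose by 4.12 ± 0.20 by d 9 and by 6.53 ± 0.20 by d 16 on the log2 scale (SE, n = 3 a day; limma adjusted p = 0.000389 and 2.23e-05), and by 2.40 from d 9 to d 16 (limma adjusted p = 0.00566). The casein gene Csn2 rose by 1.05 by d 16 (limma adjusted p = 0.00567) and Lalba, which encodes the lactose synthase subunit alpha-lactalbumin, by 1.02 (limma adjusted p = 0.00966), both relative to the other probes at equal RNA mass. Wap, a whey protein gene, was called higher by 0.70 (limma adjusted p = 0.0162), but its probe was so bright that quantile normalization gave the same value, 17.77, to all d 2 arrays. Akt1, a survival kinase, rose by 0.79 by d 9 (limma adjusted p = 0.0411). Ccnd1, the cell cycle regulator cyclin D1, fell by 2.24 from d 2 to d 16 and by 1.71 from d 9 to d 16 (limma adjusted p = 0.00157 and 0.0354), and its second probe gave -2.30 and -1.75. The STAT motif stood in 7 of the 18 promoters the RefSeq table has for 14 of these genes, beside 7.67% of all promoters. Of the 7, 2 are overlapping Bcl2l1 windows that may share the same bases, and 6 genes had a match. The motif stood in 1 of 26 promoters of the other JAK-STAT pathway genes and in 0 of 8 promoters of the STAT3 target genes described next.

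Of 12 genes known to follow STAT3, 11 were tested. By d 9 none was higher and 1 was lower than on d 2 (9.09%, beside 17.7% of all probes), and by d 16, 3 were higher and 1 lower (36.4%, beside 28.5%). The list medians were 0.02 and 1.05, where all tested probes had 0.11 and 0.04. Cd14, the lipopolysaccharide co-receptor, fell by 1.54 and 1.88 on the log2 scale (limma adjusted p = 0.0294 and 0.00952), and its second probe by 1.15 and 1.22. By d 16 the transcription factor gene Junb rose by 1.40, Lrg1 by 1.29 and Ctsb, which encodes the lysosomal protease cathepsin B, by 1.18 (limma adjusted p = 0.0263, 0.00621 and 0.00922). The d 2 signals of Junb were 7.88 to 19.7, under the minimum of 20, and dam 1 was not well above background. Junb thus entered the tests through the later days, on which it was high. Among the whey days, macrophage marker sums were highest on d 16, and their part in these changes was not tested. By d 16, 6 of 6 tested macrophage markers were called higher, beside 16.0% of all probes. Of these markers, Cd68 and C1qc were well above background on no d 2 array and entered the tests through the later days.

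**Figure D5:**
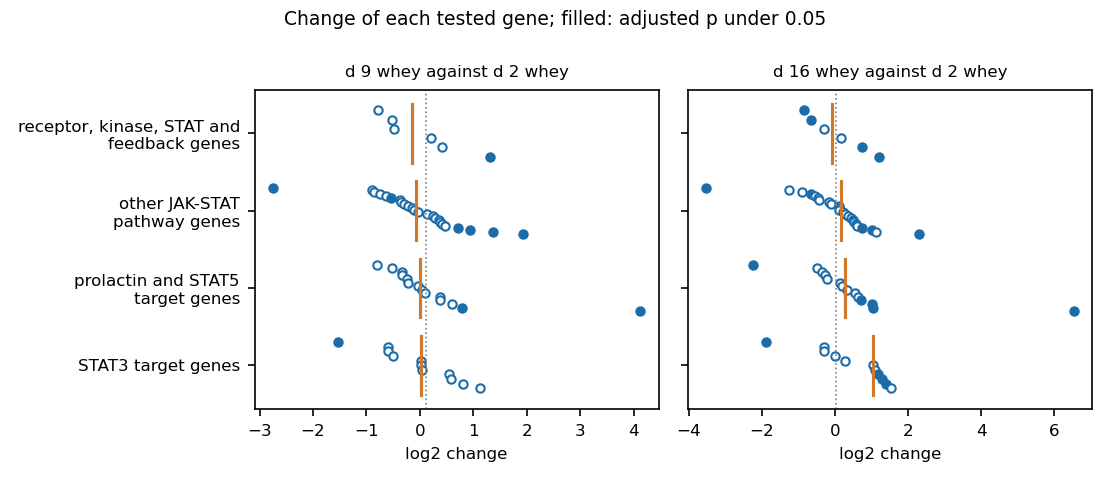
Log2 change (x axis) of each tested gene of 4 lists, d 9 against d 2 (left) and d 16 against d 2 (right), 3 dams a day. Filled points had an adjusted p under 0.05, orange bars are list medians and the dotted line is the median of all tested probes. Csn1s2b is the far right point, at 4.12 and 6.53, and Gh1 the far left, at -2.75 and -3.52.

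For Stat5a the genes with the most similar course over the 9 whey arrays were sought among 6288 named probes well above background on all of them. They were Mccc1 (Pearson r = 0.979, Spearman rho = 1), Psmd2 (r = 0.977, rho = 0.983) and Acad9 (r = 0.977, rho = 0.933). These are descriptions over arrays that share dams, days and slides, taken as the highest of many. Prlr and Cish, well above background on 6 arrays, were not compared in this way.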

How the data were processed

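RNA was amplified and labelled with Cy3 from 100 ng for each of 10 single-colour arrays. The deposited values are spot intensities made by the authors with Agilent Feature Extraction 9.5.3.1 (submitters' processing notes), background-subtracted but not normalized between arrays, and the deposited columns coded here as other are 0 or 1 flags, per the file headers. A table the authors had quantile normalized has 10 value columns that match no sample label and was not used.

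Here the processed signal was put on the log2 scale from the deposited intensity, spots flagged as outliers (93 to 121 an array) were left out, arrays were quantile normalized over all 10 and spots of a probe averaged. Probes detected on at least 1 whey array were tested with limma 3.58.1 in R 4.3.3 (lmFit, eBayes, two-sided, 9 whey arrays, Benjamini-Hochberg). Files were read with jsonlite 2.0.0 and version 1.17.8 of data.table, and figures drawn with matplotlib 3.10.9. The fit was tested on simulated data. For a gene with several probes, the one well above background on most whey arrays was used. Genes of the lists were named where called, up to 5 a comparison by size of change. Accessions were matched to RefSeq names of GRCr8, and 16815 of 20503 were found. The number of arrays limits the precision.

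The titles give the same 3 dams each day. Over the 9 pairs of arrays of 1 dam, deviations from the day means correlated at -0.02 to 0.22, 5 of them above 0.1. The members and lists were chosen with earlier results of these data known.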

Additional observations from a re-analysis of the deposited data

How the results depend on the processing

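Of the 6 tested genes, 1 was called from d 2 to d 9. That count was 0 with the Tukey-Kramer test and with slide as a fixed block, 2 with normexp, with the dam as a replicate block and with slide as a random block, and 3 with spike-in scaling and with a minimum signal of 100. From d 2 to d 16 the 4 called became 0 with spike-in scaling, 2 without the filter and 2 with the Tukey-Kramer test. Over the 3 days the 2 called became 1 with spike-in scaling and 4 with normexp, with the minimum of 100 and with slide as a random block. Leaving out 1 array gave 1 to 2, 1 to 4, 0 to 0 (d 9 to d 16) and 1 to 3. The count fell to 1 for d 16 without d 16 dam 2, which ended the Stat5b call. With spike-in scaling all tested probes had medians of 1.52 for d 9 and 0.59 for d 16, and Stat5a, Stat5b and Stat3 then read 0.94, 0.95 and 0.69 on d 9, below that median. Counts over all probes ranged from 146 to 7072, from 764 to 5695 and from 0 to 869 in the 3 comparisons (2975, 4808 and 239 as reported). The dam block, which follows from the pairing of arrays by dam, changed the calls of Stat5b on d 9 and of Jak2 on d 16 only, with 2 and 3 genes called, and moved the d 9 to d 16 count over all probes to 110. Genes past 4-fold against serum were 3, but 5 with spike-in scaling and 1 with normexp. At the 75th percentile the count was again 3, but not of the same genes. Prlr then read 0.14 on the log2 scale, and Socs2 was past 4-fold in the other direction, lower in whey. Whey minus serum turned sign for Socs1 (-1.50 at the 75th percentile, -0.27 with normexp), Socs2 (-2.08 at the 75th percentile, -0.17 for d 2 and -0.26 for d 16 alone), Socs3 (1.25 with spike-ins, 0.06 with normexp) and Cish (1.47 with spike-ins), all dim in serum. With a minimum of 100, 2 genes were detected on d 2 and 3 on d 16, and 1 was in serum when only the background mark was asked for. The causes were not tested. The signal limits what can be said: 3 genes of the 9 could not be tested.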

Other observations

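Socs3 was well above background in dam 2 alone, on d 9 and d 16, and the STAT3 target genes were looked at for the same dam after that was seen. On both days dam 2 was the highest of the 3 dams for 7 of the 11 tested targets (63.6%), Cebpd, Bcl3, Myc, Junb, Fos, Lcn2 and Cd14, and for 12.5% of all tested probes. It was so for none of the 6 members tested. Bcl3, which encodes a nuclear partner of NF-kappaB, read 6.97, 7.95 and 6.35 on d 9 and 7.02, 8.88 and 7.54 on d 16. Cebpd, a transcription factor gene of the acute phase and of mammary involution, read 10.82, 11.49 and 10.33 on d 9 and 10.95, 11.95 and 11.25 on d 16. Junb read 5.16, 5.75 and 4.32, then 4.90, 5.83 and 5.33. On d 2 dam 2 was at 7.16 for Bcl3, between 4.96 and 7.16 over the dams, and at 10.51 for Cebpd, between 9.76 and 10.60. It was highest on d 2 for Myc and Lcn2 too, but not for Junb, Fos or Cd14. Stat3 itself was lowest in dam 2 on d 9 and highest in dam 2 on d 16 with either probe. This is 1 dam, and no test was made.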
